A study of Saccharomyces cerevisiae with 12 samples.

Results

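The 9 genes described here encode the coat and the tetraspan proteins of the yeast eisosome and its membrane domain: PIL1, LSP1, SEG1, EIS1, SUR7, FMP45, PUN1, NCE102 and FHN1. They are 9 of the 6214 genes on the array, taken by gene symbol, and the set was chosen by the log2 ratio difference of PIL1 between the strains at 96 h, with its partners in the structure added. The arrays carried 12 samples of total RNA from Saccharomyces cerevisiae fermenting synthetic agave must at 28 ºC. The labels give 4 groups of 3 biological replicates: strain ITD00185, read here as the agave strain that the series title speaks of, at 48 h and at 96 h, and strain T73, a commercial wine yeast, at the same times. On every array the strain's RNA carried Cy5 and a sample mix labelled with that array's time carried Cy3, and what went into the mix is unknown here. The labels name no allele or treatment beyond strain and time.

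Eisosomes are filamentous protein coats on the inner face of the plasma membrane that hold it in short furrows. The banana-shaped proteins Pil1 and Lsp1 polymerize into the coat, and the furrow membrane gathers tetraspan proteins, several nutrient permeases and sterol. The structure is tied to sphingolipid supply: the kinases Pkh1 and Pkh2 phosphorylate Pil1 and Lsp1, and the Slm proteins move between eisosomes and the TOR kinase complex 2 when the membrane is stressed.

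All values are log2 ratios of the strain to the mix as deposited. The direction is not stated. Strain over mix is the likely one, because the labels list the Cy5 strain channel ahead of the Cy3 mix, and every sign below depends on it. Between 5657 and 6116 probes had a value on each array. The standard deviation over all genes of an array was 1.03, 1.52 and 1.06 in ITD00185 at 48 h, against 1.91, 2.08 and 1.80 in T73 at 48 h, so that the arrays were not on one spread. At 96 h it was 1.48, 1.71 and 1.68 in ITD00185, against 1.31, 1.30 and 1.14 in T73. One array stood apart within its group, replicate 2 of ITD00185 at 48 h. It correlated with r of 0.40 and 0.50 with replicates 1 and 3, which correlated with r of 0.73 with each other. With the 96 h arrays of the same strain its r was 0.81 to 0.84. Over the whole series replicates 1 and 3 were the unlike ones. Against the mean of all other arrays they had r of 0.425 and 0.541, replicate 2 had 0.81, and the arrays of the other groups had 0.713 to 0.828. Leaving out replicate 2 therefore rests the 48 h values of ITD00185 on those 2 arrays. For the genes and lists at 48 h the values without it stand beside those with it, and of the related genes named below CAN1 alone lost a 48 h call without it. The number of arrays limits the precision, and RNA level and hybridization to probes made for another genome cannot be told apart.

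At 48 h, 5 of the 8 tested genes differed between the strains. FMP45, FHN1 and NCE102 were higher in ITD00185, and PIL1 and PUN1 were lower in ITD00185. LSP1, SEG1 and SUR7 did not pass the test (limma, Benjamini-Hochberg over 5474 genes, threshold 0.05), and EIS1 had too few values to be tested. Of all genes tested, 39.5% passed at 48 h, 12.9% higher in ITD00185 and 26.7% lower. The median difference was 0.40 over the 8 genes and -0.32 over all genes tested. The arrays of the strains did not overlap for 4 of the 8, against 40.9% of all genes measured on each of the 6 arrays.

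**Figure D1:**
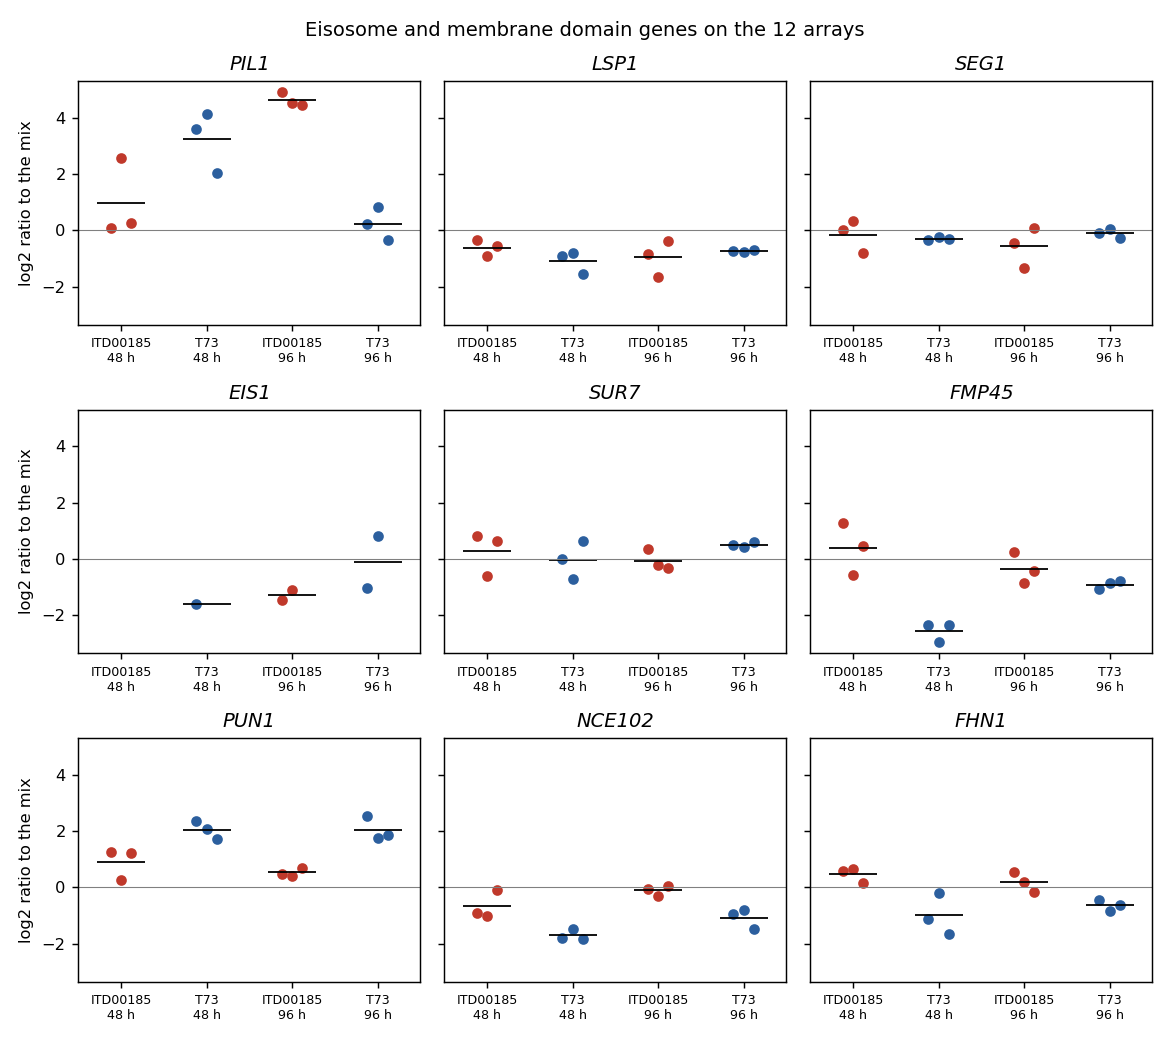
Log2 ratio of strain to mix (vertical axis) on each of the 12 arrays for the 9 genes, by strain and time, with points for arrays and lines for the group mean. PIL1 reached 4.47 to 4.92 in ITD00185 at 96 h, FMP45 lay below -2.3 on the 3 arrays of T73 at 48 h, and EIS1 had 5 values.

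PIL1, which encodes the core coat protein without which eisosomes do not form, was the most variable of the 9. At 48 h its ratios were 0.09, 2.59 and 0.27 in ITD00185, against 3.59, 4.16 and 2.05 in T73. The groups overlapped, because replicate 2 of ITD00185, the array that stood apart, exceeded the lowest T73 array. The mean was 0.98 ± 1.39 in ITD00185 and 3.26 ± 1.09 in T73 (SD, n = 3 each), a difference of -2.28 ± 0.68 (SE), or 4.86-fold lower in ITD00185, with an adjusted p of 0.0215. Without that array the difference was -3.08 (adjusted p = 0.00131). Ranked among all genes of its array, PIL1 stood at percentiles 54.8, 93.6 and 62.1 in ITD00185 and 94.2, 95.3 and 86.5 in T73. The call was lost when all arrays were scaled to one spread (-1.13, adjusted p = 0.203), after quantile normalization (-1.28, adjusted p = 0.133) and, in a setting added after the data were seen that removes the profile the arrays share, at -0.37 (adjusted p = 0.534). It was also lost without replicate 1 or 3 of ITD00185 at 48 h (adjusted p = 0.0865 and 0.0817). The same held without replicate 1 or 2 of T73 at 48 h (adjusted p = 0.0603 and 0.0805). A fit of the 48 h arrays alone lost the call as well (-2.28, adjusted p = 0.0939). The main fit took its spread from all 12 arrays, those at 96 h included.

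At 96 h, the time whose strain difference is taken to have brought PIL1 into the list, its order was the other way round. The ratios were 4.92, 4.54 and 4.47 in ITD00185, against 0.23, 0.83 and -0.35 in T73, with no overlap. They averaged 4.64 ± 0.24 in ITD00185 and 0.24 ± 0.59 in T73, and the difference of 4.41 ± 0.68 (SE), or 21.2-fold, is given as a description with no test. PIL1 lay at percentiles 99.5, 99.0 and 98.4 of the ITD00185 arrays and 58.3, 76.2 and 36.5 of the T73 arrays. Over all settings tried the difference at 96 h ran from 3.56 to 4.71. The strain difference moved by 6.69 ± 0.96 between the times, again as a description. Within a strain the ratio to the mix was 3.66 ± 0.68 higher at 96 h than at 48 h in ITD00185 and -3.03 ± 0.68 in T73. These last changes set ratios to mixes of different times against each other and are not changes of expression.

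LSP1 encodes the paralogue of Pil1, a second coat protein that is dispensable for making the furrow. At 48 h its ratios were -0.36, -0.92 and -0.56 in ITD00185, against -0.90, -0.82 and -1.56 in T73, and the groups overlapped. The difference was 0.48 ± 0.33 (adjusted p = 0.266), with a 95% confidence interval of -0.25 to 1.21, and 0.63 (adjusted p = 0.163) without the array that stood apart. At 96 h its ratios were -0.83, -1.65 and -0.40 in ITD00185 and -0.73, -0.76 and -0.69 in T73, a difference of -0.23 ± 0.33 with overlapping groups. LSP1 lay below 0 on all 12 arrays, which cannot be told apart from a dye effect, because the strain carried Cy5 on each of them. Its strain difference changed by -0.71 ± 0.47 between the times, which did not pass the test (adjusted p = 0.243).

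The 2 other coat-associated genes gave small differences or few values. SEG1 encodes a protein that acts upstream of Pil1 in eisosome assembly. Its ratios at 48 h were 0.01, 0.33 and -0.80 in ITD00185, against -0.36, -0.24 and -0.31 in T73, overlapping, and the difference was 0.15 ± 0.37 (adjusted p = 0.77, 95% confidence interval -0.67 to 0.97). Leaving out the array that stood apart gave -0.09 (adjusted p = 0.86). At 96 h SEG1 had -0.46, -1.33 and 0.08 in ITD00185 and -0.11, 0.07 and -0.26 in T73, also overlapping, a difference of -0.47 ± 0.37. EIS1, whose product is an eisosome component needed for normal assembly, had no value on any ITD00185 array at 48 h. Its 5 values were -1.46 and -1.10 in ITD00185 at 96 h, -1.62 in T73 at 48 h, and -1.02 and 0.81 in T73 at 96 h, and no comparison was made.

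Of the 3 genes of the SUR7 family of tetraspan proteins, FMP45 had the largest strain difference at 48 h. Its ratios were 1.28, -0.59 and 0.47 in ITD00185, against -2.34, -2.97 and -2.35 in T73. The groups lay apart, and the T73 values were at percentiles 4.5, 2.6 and 5.1 of their arrays, against 91.8, 28.5 and 70.9 in ITD00185. FMP45 averaged 0.39 ± 0.94 in ITD00185 and -2.55 ± 0.36 in T73 (SD, n = 3 each), a difference of 2.94 ± 0.44 (SE), or 7.67-fold, with an adjusted p of 0.000868. Without the array that stood apart it was 3.43 (adjusted p = 0.000118). The call held in all 23 other settings, with differences from 2.49 to 3.43. Fmp45 is a plasma membrane protein of the furrow, also found in mitochondrial preparations, with roles in sphingolipid content and sporulation.

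At 96 h the FMP45 values were 0.24, -0.86 and -0.42 in ITD00185, against -1.09, -0.88 and -0.78 in T73, and the groups overlapped. The difference was 0.57 ± 0.44. The strain difference therefore shrank, and its change of -2.37 ± 0.62 passed the test (adjusted p = 0.0156). Of all genes tested 38.0% passed in that comparison, 13.6% with a negative change. In T73 the ratio to the mix was higher at 96 h than at 48 h by 1.64 ± 0.44 (adjusted p = 0.018), where 32.4% of all genes passed, 8.42% of them upward and 23.9% downward as shares of all tested, and in ITD00185 the change was -0.73 ± 0.44 (adjusted p = 0.255). Scaling to one spread left the change of the strain difference at -1.92 (adjusted p = 0.0761) and quantile normalization at -2.19 (adjusted p = 0.065), and both also ended the call within T73.

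SUR7, the founding member of the family and the usual marker of the domain, was near the mix in both strains. At 48 h it had 0.82, -0.61 and 0.64 in ITD00185, against 0.01, -0.73 and 0.64 in T73, overlapping, a difference of 0.31 ± 0.42 (adjusted p = 0.573, 95% confidence interval -0.62 to 1.24). Leaving out the array that stood apart gave 0.76 (adjusted p = 0.107). At 96 h SUR7 had 0.35, -0.22 and -0.33 in ITD00185 and 0.48, 0.43 and 0.58 in T73. The arrays of the strains lay apart there, by a difference of -0.56 ± 0.42. Its strain difference changed by -0.88 ± 0.60 (adjusted p = 0.256), and by -1.32 (adjusted p = 0.0443) without the array that stood apart.

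PUN1, named for a plasma membrane protein upregulated in nitrogen stress, had ratios above 0 on all 12 arrays. The strain carried Cy5 on each of them, so this constant sign cannot be told apart from a dye effect. Its ratios at 48 h were 1.26, 0.28 and 1.20 in ITD00185, against 2.36, 2.07 and 1.73 in T73, with no overlap. It averaged 0.91 ± 0.55 in ITD00185 and 2.05 ± 0.32 in T73, a difference of -1.14 ± 0.33 (adjusted p = 0.019), or 2.20-fold lower in ITD00185. Without the array that stood apart it was -0.82 (adjusted p = 0.0372). This 48 h value did not survive a change of scale: it was -0.03 with arrays scaled to one spread and turned positive, 0.08 under quantile normalization and 0.15 once the shared profile was removed. The 48 h call was also lost without replicate 1 of T73 at 48 h (-0.98, adjusted p = 0.0622). In a fit of the 48 h arrays alone it was lost too (-1.14, adjusted p = 0.0903). By rank PUN1 stood at percentiles 91.6, 55.7 and 90.4 in ITD00185 and 85.4, 79.5 and 82.4 in T73, and these overlapped. At 96 h the ratios were 0.47, 0.42 and 0.70 in ITD00185, against 2.54, 1.75 and 1.86 in T73. The groups lay apart by -1.52 ± 0.33, or 2.87-fold lower in ITD00185, and the ranks lay apart as well, at percentiles 65.1, 57.7 and 67.7 in ITD00185 and 96.5, 90.9 and 95.5 in T73. Over all settings the 96 h difference ran from -2.11 to -1.28.

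NCE102 and FHN1 are paralogues. Nce102 is a tetraspan protein that senses sphingolipid shortage and restrains the Pkh kinases, and Fhn1 can replace it. NCE102 at 48 h had -0.91, -1.03 and -0.09 in ITD00185, against -1.81, -1.48 and -1.83 in T73, with no overlap. The difference was 1.03 ± 0.30 (adjusted p = 0.0194), or 2.04-fold higher in ITD00185, and 1.20 (adjusted p = 0.0083) without the array that stood apart. It stayed positive but lost the call with arrays scaled to one spread (0.61, adjusted p = 0.2), under quantile normalization (0.68, adjusted p = 0.147), once the shared profile was removed (0.74, adjusted p = 0.0756), without replicate 3 of ITD00185 at 48 h (0.74, adjusted p = 0.0761) and without replicate 1 of T73 at 48 h (0.98, adjusted p = 0.0521). The 48 h call was also lost in a fit of the 48 h arrays alone (1.03, adjusted p = 0.0969). At 96 h NCE102 had -0.06, -0.30 and 0.05 in ITD00185 and -0.95, -0.82 and -1.49 in T73, apart by 0.98 ± 0.30.

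FHN1 at 48 h had 0.56, 0.67 and 0.16 in ITD00185, against -1.12, -0.21 and -1.65 in T73. The groups lay apart, with the 3 ITD00185 arrays above 0 and the 3 T73 arrays below 0. FHN1 averaged 0.46 ± 0.27 in ITD00185 and -0.99 ± 0.73 in T73, a difference of 1.46 ± 0.35 (adjusted p = 0.0092), or 2.74-fold. Without the array that stood apart it was 1.35 (adjusted p = 0.0158), and in a fit of the 48 h arrays alone the call was lost (1.46, adjusted p = 0.0665). At 96 h the values were 0.54, 0.18 and -0.16 in ITD00185, against -0.45, -0.84 and -0.65 in T73, apart by 0.83 ± 0.35. The change of the strain difference between the times was -0.63 ± 0.50 for FHN1 (adjusted p = 0.331) and -0.05 ± 0.42 for NCE102 (adjusted p = 0.933).

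**Figure D2:**
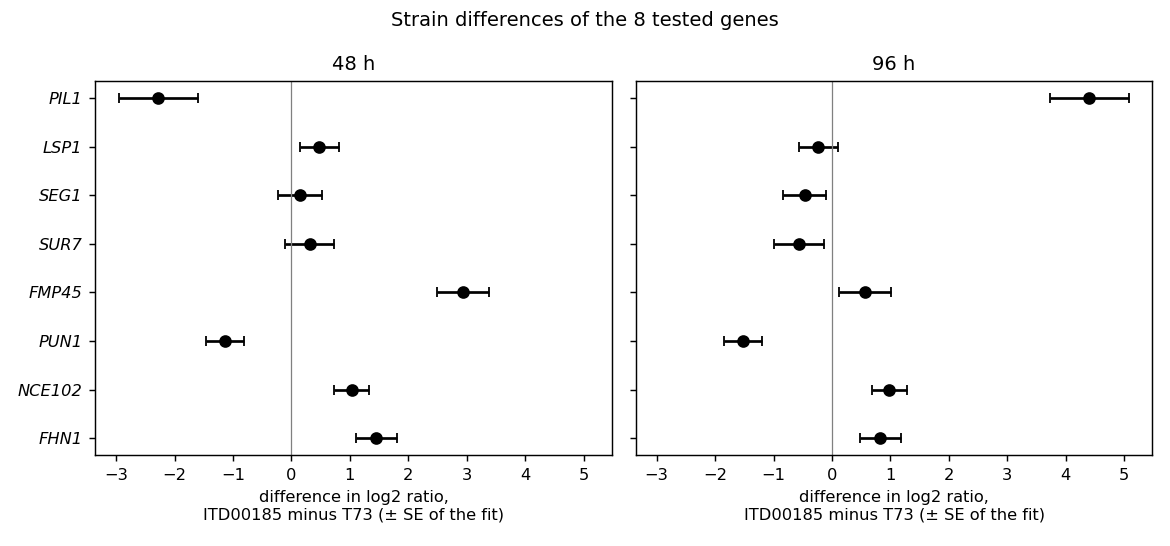
Difference in log2 ratio, ITD00185 minus T73 (horizontal axis), for the 8 tested genes at 48 h (left) and 96 h (right), with points for the fitted difference and bars for its SE. PIL1 lies at -2.28 at 48 h and 4.41 at 96 h, while PUN1, NCE102 and FHN1 lie on one side of 0 at both times.

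Set side by side in the plot of strain differences, 5 of the 8 genes lay apart between the strains at 96 h (PIL1, SUR7, PUN1, NCE102 and FHN1), against 58.2% of all genes measured on each of the 6 arrays. The median difference at 96 h was 0.17 over the 8 genes and -0.01 over all genes tested. Of the 7 tested genes other than PIL1, all 7 had a negative change of the strain difference, from -2.37 for FMP45 to -0.05 for NCE102. Their median was -0.63, against 0.20 over all genes tested, of which 2505 of 5474 had a negative change. FMP45 was the 1 of the 7 that passed, where 38.0% of all genes passed and 13.6% did so with a negative change. The count is below the share in either direction and near the share with a negative change. NCE102 turned positive in that comparison under 3 of the scalings (0.48 to 0.56), and SEG1 did so with array weights (0.25). Within ITD00185, 0 of the 7 passed in the limma test, and 0 had an unadjusted p below 0.05, where 6.52% of all genes passed, 3.82% upward and 2.70% downward. PUN1 passed for the change of the strain difference under those 3 scalings, at -1.98 to -2.21 (adjusted p = 0.0289 to 0.0373), against -0.38 ± 0.46 (adjusted p = 0.519) as deposited.

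**Figure D3:**
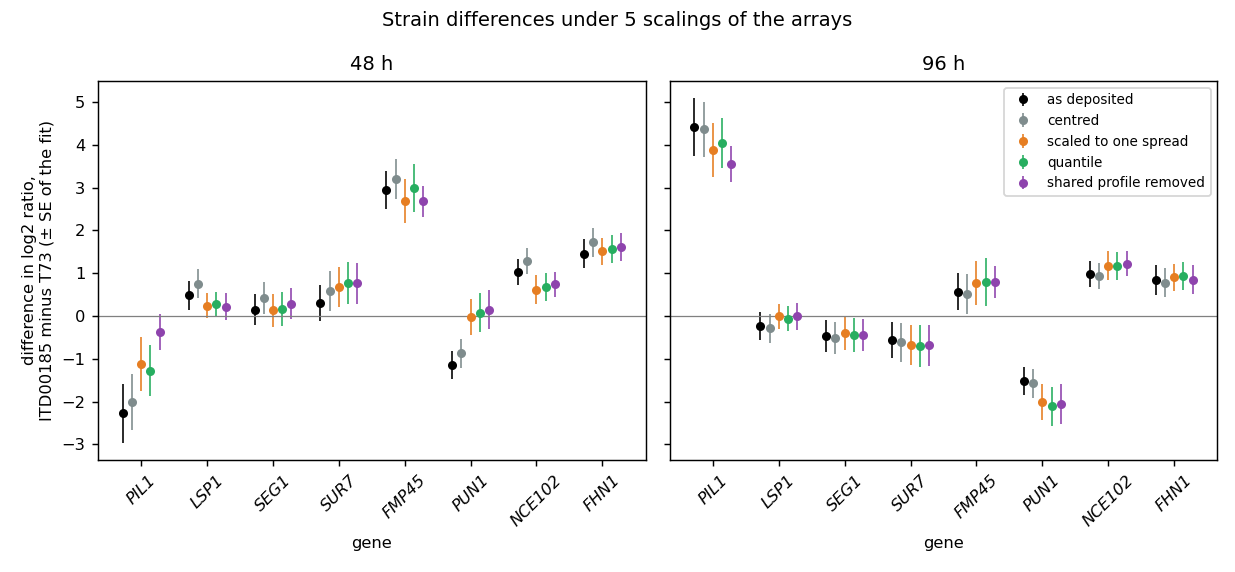
Strain difference of the log2 ratio, ITD00185 minus T73 (vertical axis, ± SE), of the 8 tested genes at 48 h (left) and 96 h (right) under 5 scalings of the arrays. FMP45 and FHN1 keep their place at 48 h, PIL1 moves between -2.28 and -0.37 and PUN1 between -1.14 and 0.15, and at 96 h PIL1 stays at 3.56 or above and PUN1 at -1.52 or below.

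The plot of the scalings shows where the choice of scale mattered. Centring each array on its median moved the median of all genes at 48 h to -0.05 from -0.32 as deposited, and gave 1001 calls higher and 1120 lower in ITD00185, where the ratios as deposited gave 705 higher and 1459 lower. With centring PIL1 was at -2.01 (adjusted p = 0.0302), NCE102 at 1.29 (adjusted p = 0.00791), FHN1 at 1.72 (adjusted p = 0.00314) and PUN1 at -0.87 (adjusted p = 0.0604).

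The related lists were chosen with earlier results of these data known. Their calls and adjusted p values below are therefore descriptions and not independent tests. The percentages of all genes beside the lists are for the ratios as deposited. Counts over all genes moved with the setting as well, so list counts in other settings cannot be read against those percentages. Among the other proteins of the domain, 2 of 5 were higher and 2 of 5 lower in ITD00185 at 48 h, with a list median of -0.22, where 12.9% of all genes were higher and 26.7% lower. Without the array that stood apart the counts were also 2 and 2, and the median was -0.21. The median turned positive, 0.05 with centred arrays and 0.63 to 0.80 under the other scalings, with 1 to 2 higher and 1 lower under those 3. RFS1, a flavodoxin-like protein, was lower in ITD00185 by -2.12 ± 0.24 at 48 h (adjusted p = 0.000204) and by -1.54 ± 0.24 at 96 h (adjusted p = 0.00194). PST2, its relative, was higher in ITD00185 at 48 h by 1.94 ± 0.41 (adjusted p = 0.00501) and differed by 0.06 at 96 h. YNL194C, the paralogue of FMP45, had -0.27, -1.07 and -0.11 in ITD00185 at 48 h, against -1.49, -1.73 and -1.30 in T73. It was higher in ITD00185 by 1.02 ± 0.30 (adjusted p = 0.0203), as FMP45 was, and its strain difference changed by -1.74 between the times (adjusted p = 0.0115). SEG2, the paralogue of SEG1, was lower in ITD00185 at 48 h by -1.43 ± 0.40 (adjusted p = 0.0164) and higher at 96 h by 1.56 ± 0.40 (adjusted p = 0.019), a change of 2.99 ± 0.56 (adjusted p = 0.00431). With one spread for all arrays the 48 h calls of SEG2 (-0.61) and YNL194C (0.73) were lost, while both changes held, at 1.96 for SEG2 and -1.43 for YNL194C.

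The permeases that gather in the domain gave 2 higher and 2 lower of 5 at 48 h, against 12.9% and 26.7% of all genes. Centring gave 2 higher and 0 lower, and 2 were higher and 1 lower under the other scalings and without the array that stood apart. LYP1, the lysine permease, was higher in ITD00185 by 1.01 ± 0.26 (adjusted p = 0.0114) and MUP1, the high-affinity methionine permease, by 1.28 ± 0.38 (adjusted p = 0.021). FUR4, the uracil permease, was lower in ITD00185 at 48 h by -1.16 ± 0.33 (adjusted p = 0.0187) and at 96 h by -2.15 ± 0.33 (adjusted p = 0.00194), and centring ended its 48 h call (-0.89). CAN1, the arginine permease, was at -0.87 ± 0.30 at 48 h (adjusted p = 0.0383), a call lost under each of the 4 scalings and without the array that stood apart, and at -1.01 ± 0.30 at 96 h (adjusted p = 0.0346).

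The list of eisosome kinases, Slm proteins and subunits of TOR complex 2 held 16 genes. Of these PKH2, PKH3 and FPK1 had too few values to be tested. At 48 h 4 of 13 genes were lower in ITD00185 and 0 of 13 higher (0 also at an unadjusted p below 0.05), with a list median of -0.78. Over all genes 26.7% were lower, so that 4 of 13 is near that share. Without the array that stood apart 7 of 13 were lower and the median was -1.28. In that setting 1752 of all 5474 genes were lower, against 1459 as deposited. At 96 h 7 of 13 were higher in ITD00185 and 0 of 13 lower (again 0 at an unadjusted p below 0.05), with a median of 0.98, where 22.5% of all genes passed, 12% higher in ITD00185 and 10.5% lower. The change of the strain difference was positive and passed for 6 of 13, against 24.4% of all genes. At 96 h the other domain proteins gave 2 higher and 1 lower of 5, and the permeases 0 and 2 of 5. Phosphoinositide enzymes gave 2 and 0 of 4, and sphingolipid synthesis 1 and 5 of 28. For the change, these 4 lists gave 2 positive and 2 negative, 0 and 2, 1 and 0, and 4 and 6, against 24.4% and 13.6% of all genes. PKH1, the kinase that phosphorylates Pil1 and Lsp1, had -1.28, -0.06 and -0.98 in ITD00185 at 48 h, against 2.39, 2.77 and 0.28 in T73. At 96 h it had 1.12, 2.03 and 1.22 in ITD00185, against -1.38, -0.91 and -1.33 in T73. The groups lay apart at both times, in opposite order, by -2.59 ± 0.58 (adjusted p = 0.00633) at 48 h and 2.66 ± 0.58 (adjusted p = 0.00932) at 96 h, and both calls held under the 4 scalings. AVO1, a subunit of TOR complex 2, was at -1.99 ± 0.52 (adjusted p = 0.0144) at 48 h and 2.52 ± 0.47 (adjusted p = 0.00532) at 96 h. It had no value on replicate 1 of T73 at 48 h, and 2.29 and 0.89 on replicates 2 and 3. SLM2, which carries the membrane signal to that complex, was at -1.65 ± 0.50 (adjusted p = 0.0237) and 1.73 ± 0.50 (adjusted p = 0.031). LST8, a subunit of both TOR complexes, was lower in ITD00185 at 48 h by -1.67 ± 0.48 (adjusted p = 0.0187) and stood at -0.47 at 96 h. The other tested kinases of the list did not pass at 48 h. TOR2 (0.72 at 48 h and 0.39 at 96 h), YPK1 (0.31 and -0.08) and YPK2 (0.36 and -0.53) did not pass at 96 h either. KIN82 passed at 96 h, at 3.01. With one spread for all arrays the 48 h values of AVO1, SLM2 and LST8 lost their calls (-1.60, -1.17 and -1.57). The list then gave 1 gene of 13 lower at 48 h and 5 higher at 96 h. Over all 5474 genes in that setting 715 were lower at 48 h and 669 higher at 96 h.

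**Figure D4:**
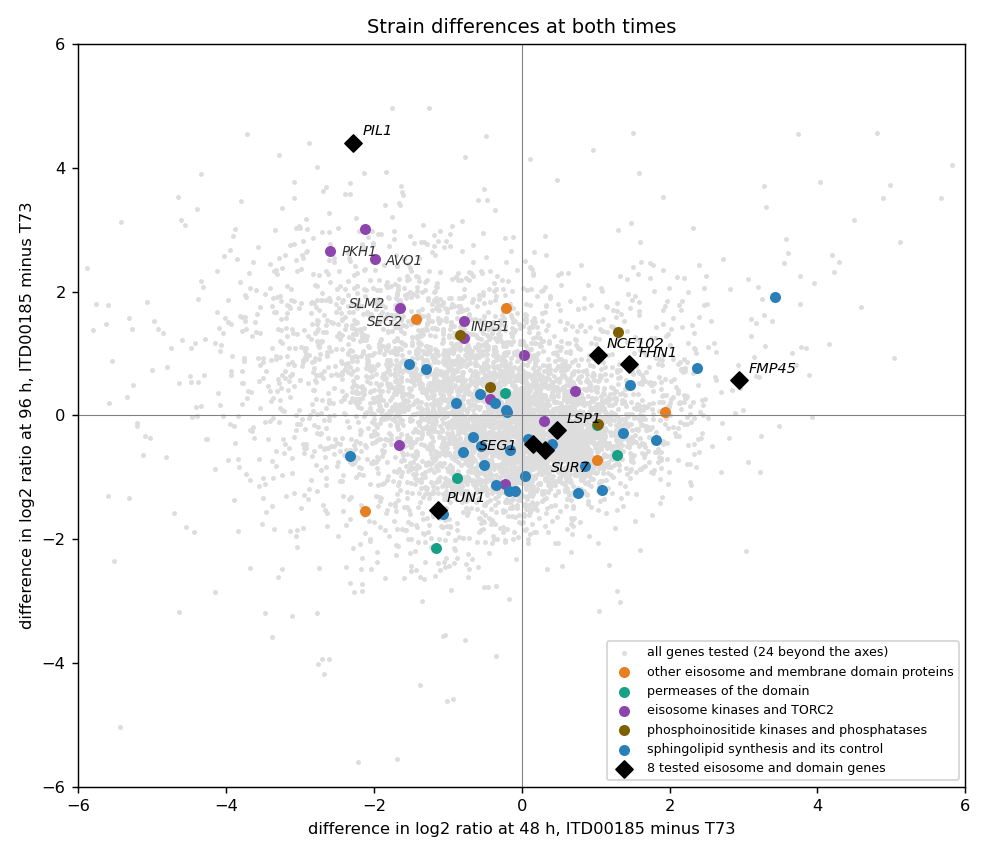
Strain difference in log2 ratio, ITD00185 minus T73, at 48 h (horizontal axis) and at 96 h (vertical axis) for all 5474 genes tested (grey; 24 lie beyond the axes), the 8 tested eisosome and domain genes (black diamonds) and the 5 related lists (coloured). PIL1, PKH1, AVO1, SLM2 and SEG2 lie left of 0 and above 0, while FMP45, FHN1 and NCE102 lie to the right and above 0.

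Of 4 phosphoinositide enzymes tested, 1 was higher and 1 lower at 48 h, against 12.9% and 26.7% of all genes. The counts were 2 higher and 1 lower without the array that stood apart. INP53, a synaptojanin-like phosphatase, was higher in ITD00185 by 1.30 ± 0.35 at 48 h (adjusted p = 0.015) and by 1.34 ± 0.35 at 96 h (adjusted p = 0.0218). INP51, which removes a phosphate from the plasma membrane lipid that Pil1 binds, was lower in ITD00185 at 48 h by -0.84 ± 0.30 (adjusted p = 0.0419) and higher at 96 h by 1.31 ± 0.30 (adjusted p = 0.0112). With one spread for all arrays the 48 h values were 0.89 for INP53 and -0.23 for INP51 and neither passed.

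Sphingolipid synthesis gave 5 higher and 5 lower of 28 at 48 h, with a median of -0.19, against 12.9% and 26.7% of all genes. With centred arrays 8 were higher and 3 lower, under the other scalings 5 and 2, and without the array that stood apart 8 and 5. The median was 0.06 to 0.12 in these settings. The counts over all 5474 genes moved too, from 705 higher and 1459 lower as deposited. They were 1001 and 1120 with centred arrays, and 1080 and 1752 without the array that stood apart. Under the other scalings 537 to 764 were higher and 684 to 715 lower. CSG2, the regulatory subunit of mannosylated sphingolipid synthesis, had 1.61, 0.48 and 1.89 in ITD00185 at 48 h, against -2.25, -2.57 and -1.49 in T73. The groups lay apart by 3.43 ± 0.39 (adjusted p = 0.000236), and by 1.91 ± 0.39 at 96 h (adjusted p = 0.00705). CSH1, a catalytic subunit of the same step, was higher in ITD00185 at 48 h by 2.37 ± 0.26 (adjusted p = 0.000203). TSC13, of fatty acid elongation, was higher by 1.46 ± 0.31 (adjusted p = 0.00466), and TSC10, which makes the sphingoid base from its ketone, by 1.82 ± 0.42 (adjusted p = 0.00708). LCB2, a subunit of serine palmitoyltransferase, was lower in ITD00185 at 48 h by -1.53 ± 0.32 (adjusted p = 0.00437), and ELO3, an elongase of very long fatty acids, by -2.33 ± 0.36 (adjusted p = 0.000941). Both of these calls were lost with arrays scaled to one spread, at -0.52 for LCB2 and -0.89 for ELO3.

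Over the 12 arrays, and among 4119 named genes with no missing ratio, the ratios closest to those of PIL1 by Pearson's r were those of BMH2, a 14-3-3 protein (0.971), MHP1 (0.970), RIM8, an arrestin-like protein of pH signalling (0.965), NVJ1 of the junction between nucleus and vacuole (0.965) and GPA2, a G protein subunit of glucose sensing (0.963). BMH2 averaged 0.77 in ITD00185 and 2.86 in T73 at 48 h, and 3.18 in ITD00185 and 0.29 in T73 at 96 h. The closest to FMP45 were BNA6 of NAD synthesis (0.987), CCP1, the mitochondrial cytochrome c peroxidase (0.981), LEU4 of leucine synthesis (0.977), GTT1, a glutathione transferase (0.975), and ACO1, aconitase (0.975). Among the 8 genes themselves r ran from -0.71, between PIL1 and SUR7, to 0.69, between FMP45 and each of NCE102 and FHN1, and it was -0.35 between the paralogues PIL1 and LSP1. These values describe 12 arrays in 4 groups, so that they hold the strain, the time and the spread of each array together, and no p is given.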

How the data were processed

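Total RNA of 12 samples was hybridized with a mix of samples to 2-colour arrays, per the labels. The authors deposited log2 ratios, 1 per probe and array. Scanning, background correction and normalization are not given in the sources used here. Of 6246 probes, 5753 were matched by systematic name and 34 by synonym to the RefSeq gene table of S288C, probes of a gene were averaged (each of the 9 genes had 1), and 5474 of 6214 genes with values on at least 2 arrays of each of the 4 groups were tested. A model of 4 group means was fitted with limma 3.58.1 in R 4.3.3 (8 residual and 3.16 prior degrees of freedom), two-sided, with Benjamini-Hochberg adjustment over all genes tested at 0.05, and was tested on simulated data. Figures were drawn with matplotlib 3.10.9.

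Members and lists were chosen with earlier results of these data known. The adjusted p values printed for genes of the lists are for that reason descriptive, those at 96 h included. No p is given for a strain difference of the 9 genes at 96 h, nor for any PIL1 comparison other than that at 48 h. Named are all 9 genes, up to 6 genes of each related list that passed at 48 h (smallest adjusted p first), and the 5 genes most correlated with PIL1 and with FMP45. The remaining kinases of the kinase list are named as well. Same-numbered replicates were not treated as pairs, because the labels name no shared source. The values themselves were mixed on this. Of 18 same-numbered array pairs 8 had a correlation of deviations over 0.1, in a range of -0.19 to 0.52, while 9 of 12 arrays correlated best with arrays of their own number. Alternatives were other scalings, array weights, filters, a replicate block, single-time fits and each array left out.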

Additional observations from a re-analysis of the deposited data

Results flagged for a closer look

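The strain difference of FMP45 differed between the times: it was 2.94 at 48 h and 0.57 at 96 h, and the test of the change itself gave -2.37 (limma, adjusted p = 0.0156). The call was lost with arrays scaled to one spread (-1.92, adjusted p = 0.0761) and under quantile normalization (-2.19, adjusted p = 0.065).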

How the results depend on the processing

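Of 23 alternatives at 48 h, FMP45 kept its call in all 23 and FHN1 in 22, while PIL1 lost it in 8, NCE102 in 6 and PUN1 in 6, with PUN1 reversed in 2 of those. The cause was not tested. The members' median at 48 h was 0.66 with centred arrays, and the number called lower was 1 with centred arrays and 0 with one spread for all arrays, under quantile normalization, with the shared profile removed or with the arrays of this time alone, where 1 was called higher. PUN1 turned to 0.08 (quantile) and 0.15 (shared profile removed), and SEG1 to -0.31 with array weights. With the shared profile removed the 96 h median was 0.40. For the change of the strain difference the median was -0.94 with centred arrays, and 2 were called negative with array weights and with the shared profile removed. There NCE102 turned to 0.56 (one spread), 0.49 (quantile) and 0.48 (shared profile removed), and SEG1 to 0.25 with array weights. In ITD00185 over time array weights called 2 negative, SEG1 turned to 0.47 with them, and LSP1 to 0.05 with the shared profile removed. In T73 the median was 0.67 with centred arrays and 0.55 with the shared profile removed. The number called positive was 2 with centred arrays or array weights and 0 with arrays scaled to one spread or quantile normalization. PUN1 turned to 1.17, 1.24 and 1.13 in T73 (one spread, quantile, shared profile removed).

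With each array left out in turn, the 48 h median ran from 0.21 to 0.70, with 2 to 3 called higher and 0 to 2 lower. The 96 h median ran from -0.01 to 0.47, and that of the change from -0.73 to -0.35, with 1 to 2 called negative. In ITD00185 the median ran from -0.43 to -0.15 with 0 to 1 called negative, and in T73 from 0.17 to 0.42 with 0 to 1 called positive. Without replicate 2 of ITD00185 at 48 h, FMP45 passed in ITD00185 over time at -1.22 (adjusted p = 0.0258). Without replicate 2 of T73 at 48 h, or replicate 3 at 96 h, FMP45 no longer passed in T73 over time, at 1.43 (adjusted p = 0.0664) and 1.57 (adjusted p = 0.0612).

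Over all genes, 2164 were called at 48 h as deposited, 1252 with one spread, 1265 after quantile normalization, 794 with the arrays of that time alone, 3090 with array weights and, without one array, from 1414 to 2832 (without replicate 1 and replicate 2 of ITD00185 at 48 h). At 96 h they were 1229 as deposited, 3542 with array weights and, without one array, from 537 (without replicate 1 of T73 at 96 h) to 1799 (without replicate 2 of ITD00185 at 48 h). For the change the counts were 2080 as deposited, 1215, 1248 and, with array weights, 3587. In ITD00185 over time they were 357 as deposited and from 21 to 3306 elsewhere, 2104 of them without replicate 2 at 48 h, and in T73 1772 as deposited against 759 and 766 with one spread and quantile normalization.

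With the replicate number as a replicate block, PIL1 stayed at -2.28 at 48 h (adjusted p = 0.00751) and FMP45 at 2.94 (adjusted p = 0.000619), no call among the 9 genes changed, and 683 genes were called in ITD00185 over time. Of the 12 arrays, 9 correlated best, on average over the other groups and by deviations from the group means, with arrays of their own number, a hint from the data and not from the design.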
